A study of Mus musculus with 6 samples.

Results

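The genes described here are 10 imprinted or imprint-associated genes of distal mouse chromosome 7. They are H19 and Igf2, which form one cluster, and Ascl2, Cd81, Tssc4, Kcnq1, Kcnq1ot1, Cdkn1c, Slc22a18 and Phlda2, which form the neighbouring one. They were taken by gene symbol, and all 10 were found among the 53927 symbols of the count tables. Their RNA was measured by sequencing of rRNA-depleted total RNA from cells labelled as wild-type mouse embryonic stem cells (ESCs), in 3 libraries of BRD0705/PD03 and 3 of 2i. BRD0705/PD03 is the serum-free N2B27 medium with BRD0705 at 8 µM, which selectively inhibits GSK3 alpha, and the MEK inhibitor PD0325901 at 1 µM. The 2i medium is N2B27 with CHIR99021 at 3 µM, an inhibitor of both GSK3 kinases, and the same MEK inhibitor at 1 µM. The line is labelled E14, whereas the growth protocol speaks of B6D2F1 ESCs that were derived on feeders, separately in each medium, so medium and derivation cannot be told apart.

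Each cluster is governed by an imprinting control region that is DNA-methylated on the allele of a single parent. On the maternal chromosome the unmethylated region beside H19 binds the insulator protein CTCF, which keeps shared enhancers from Igf2, so H19 RNA comes from the maternal allele and Igf2 RNA from the paternal allele. In the neighbouring cluster the control region is the promoter of Kcnq1ot1, a long noncoding RNA that is made from the unmethylated paternal allele and silences genes on both sides of it in cis. Cdkn1c, Phlda2, Slc22a18 and Kcnq1 are thereby expressed mainly from the maternal allele in mouse, while the imprinting of Ascl2, Cd81 and Tssc4 is known mainly from the placenta. The counts do not separate the parental alleles, so the values below are totals over both alleles.

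H19, Igf2, Cdkn1c, Phlda2, Slc22a18 and Ascl2 were higher in BRD0705/PD03, and Kcnq1ot1 and Cd81 were lower. Of the 10 members, 9 passed the filter on low counts, and 6 of these were higher and 2 lower in edgeR's quasi-likelihood test at an adjusted p under 0.05. Over all 20422 genes tested, 61.4% were called, 30.1% as higher and 31.4% as lower. The 6 members called higher all rose by 2-fold or more, which held for 10.9% of all genes, and the 2 called lower fell by less than 2-fold, whereas 10.3% of all genes fell by 2-fold or more. The median log2 fold change of BRD0705/PD03 over 2i was 1.84 over the 9 tested members and 0.0003 over all tested genes. The groups did not overlap for any of the 9 tested members, nor for 66.0% of all genes. Those 6 members had all their BRD0705/PD03 values above all their 2i values, as had 32.4% of all genes. Kcnq1ot1, Cd81 and Tssc4, 3 members, had all their BRD0705/PD03 values below all their 2i values, against 33.6% of all genes. By the allele each gene uses where it is imprinted, 5 of the 7 tested maternal members were higher and 1 lower. These include Ascl2 (higher), Cd81 (lower) and Tssc4 (not called), whose imprinting is known mainly from the placenta. The other maternal members tested, H19, Cdkn1c, Phlda2 and Slc22a18, were all higher. Of the 2 paternal members Igf2 was higher and Kcnq1ot1 lower.

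**Figure D1:**
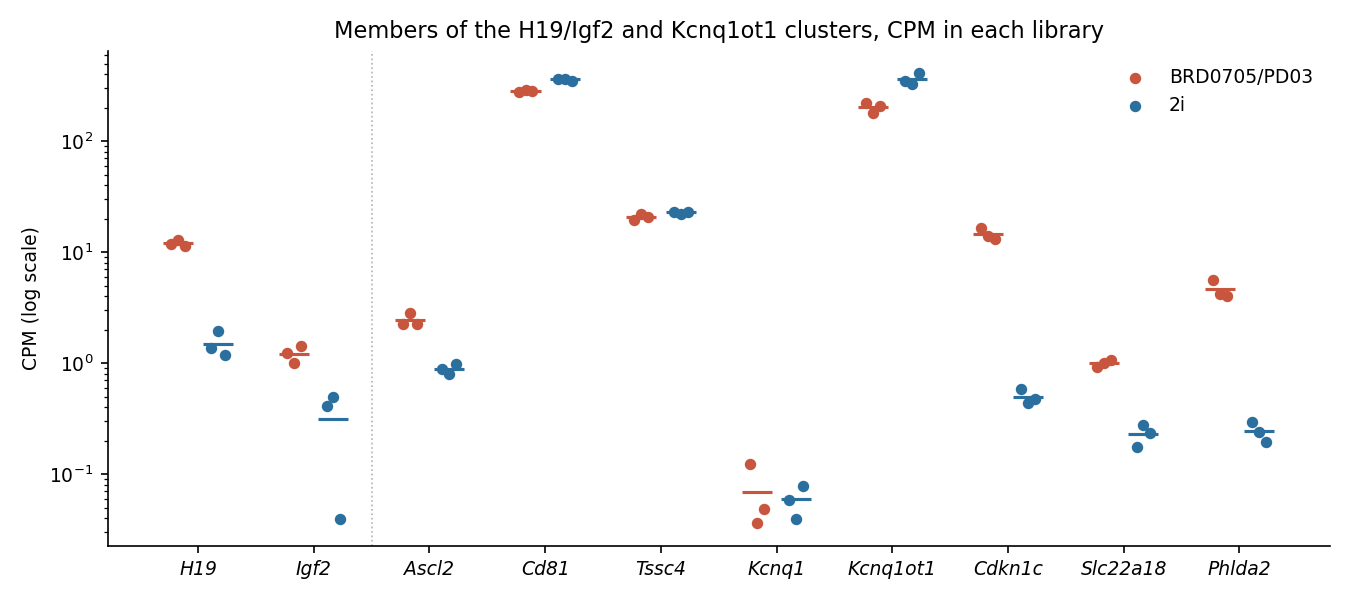
Levels of the 10 members in CPM (log axis, counts scaled to a common library size) in each library, BRD0705/PD03 at left and 2i at right for each gene, with a bar at the group mean (n = 3 each); a dotted line parts the H19/Igf2 cluster from the other. H19, Igf2, Ascl2, Cdkn1c, Slc22a18 and Phlda2 stand higher in every BRD0705/PD03 library, Kcnq1ot1, Cd81 and Tssc4 lower, and Kcnq1 is near 0 in both groups.

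The libraries held 27825601 to 40790837 counts in BRD0705/PD03 and 16968959 to 51180228 in 2i, so 3 counts, the limit that a count of 0 allows, correspond to between 0.0598 and 0.178 CPM in a library. Values are CPM on effective library sizes, as mean ± SD with n = 3 per group, fold changes are log2 of BRD0705/PD03 over 2i ± their standard error, and adjusted p-values are from edgeR over all genes tested. All 12 ESC markers passed the filter, 6 (50%) higher and 5 (41.7%) lower, against 30.1% and 31.4% of all tested genes. The summed levels of the ESC markers were 3579 to 3713 CPM in BRD0705/PD03 and 3949 to 4244 CPM in 2i. Y-linked RNA differed between the groups, with all 4 genes tested higher and their summed levels at 307 to 329 CPM in BRD0705/PD03 and 9.48 to 11 CPM in 2i. In BRD0705/PD03 against 2i, Eif2s3y averaged 108 against 1.16 CPM, Ddx3y 122 against 3.02 CPM and Uty 84.0 against 2.95 CPM. Kdm5d differed less, at 4.39 against 3.29 CPM. Xist, named after its values were seen, averaged 14.4 CPM in BRD0705/PD03 and 9.26 CPM in 2i. A difference in line or sex between the groups cannot be told apart from the medium. Fibroblast markers, which feeder cells would carry, were also higher in BRD0705/PD03. Of 18 such markers 16 (88.9%) were higher and 0 lower, against 30.1% and 31.4% of all tested genes. The summed levels of these markers were 1756 to 2295 CPM in BRD0705/PD03 and 1343 to 1377 CPM in 2i, and none of the 18 was at 0. The largest part of both sums was Fn1, named after its values were seen, at 742 to 854 CPM in BRD0705/PD03 and 790 to 820 CPM in 2i. Fn1 was not called (-0.02 ± 0.05, adjusted p = 0.727), so the sums differ less between the groups than most of the markers do. In bulk RNA, more cells of a type and more RNA per cell cannot be told apart. The part of the Y-linked difference in the results on the members was not tested.

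H19 is a long noncoding RNA (chromosome 7, 142575529 to 142578143 on the minus strand of GRCm38). It stood at 11.8, 12.99 and 11.5 CPM in the BRD0705/PD03 libraries, against 1.36, 1.95 and 1.18 CPM in the 2i libraries. The values within BRD0705/PD03 lay close together, and the groups were far apart. The mean was 12.1 ± 0.782 CPM in BRD0705/PD03 and 1.499 ± 0.403 CPM in 2i, a 7.58-fold difference (2.92 ± 0.14, adjusted p = 4.28e-12), and 1.90% of all tested genes had a higher fold change. H19 carries a microRNA, miR-675, in its transcript, and Igf2 carries miR-483 in an intron. Their mature forms are shown because H19 and Igf2 RNA serve as their precursors, from the RefSeq table for GRCm38.p6, with the seed (bases 2 to 8) in capitals.
miR-675-5p: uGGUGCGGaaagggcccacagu
miR-675-3p: cUGUAUGCccuaaccgcucagu
miR-483-5p: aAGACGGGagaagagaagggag
miR-483-3p: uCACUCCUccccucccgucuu
The 4 seeds differ from one another. Both microRNA genes had 0 counts in all 6 libraries. Libraries of this kind are not made to capture mature microRNAs, so their level was not measured here.

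Igf2 encodes a fetal growth factor and lies 88.7 kb from the H19 start (142650766 to 142666816, minus strand). It was scarce, with 40, 28 and 58 counts in the BRD0705/PD03 libraries and 7, 25 and 1 counts in the 2i libraries. In CPM it stood at 1.23, 1.02 and 1.42 in BRD0705/PD03, against 0.415, 0.498 and 0.0394 in 2i. The groups did not overlap, and 2i replicate 3 lay far below the other 2i libraries. Igf2 was higher in BRD0705/PD03 (1.84 ± 0.44, adjusted p = 0.00307). The gene model Gm49394, on the same strand, shares 3596 exonic bases with Igf2, which are 62.8% of the exonic length of Igf2, and it held 6 counts in 2i replicate 3 and 0 in the other 5 libraries. With both models summed, an alternative chosen after the data were seen, the difference was 1.57 (adjusted p = 0.00012). Without 2i replicate 3 the difference for Igf2 alone was 1.39 (adjusted p = 0.000862), and without 2i replicate 2 it was 2.66 (adjusted p = 0.000773).

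H19 counts exceeded Igf2 counts in every library. The ratio of H19 to Igf2 counts was 9.62, 12.8 and 8.09 in BRD0705/PD03, against 3.29, 3.92 and 30.0 in 2i, so the groups overlapped. With Gm49394 added to Igf2, 2i replicate 3 had a ratio of 4.29, and the 2i ratios then lay below those of BRD0705/PD03. These ratios are within a library and are not corrected for length.

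Kcnq1ot1 is the noncoding RNA whose promoter controls the second cluster (143203458 to 143296549, minus strand, antisense to Kcnq1). It stood at 219, 182 and 208 CPM in the BRD0705/PD03 libraries, against 346, 330 and 410 CPM in the 2i libraries. Every BRD0705/PD03 library lay below every 2i library. The mean was 203 ± 19.3 CPM in BRD0705/PD03 and 362 ± 42.6 CPM in 2i, and Kcnq1ot1 was 1.78 times higher in 2i (-0.83 ± 0.12, adjusted p = 0.002). Tested against a fold of 1.5 rather than against no change, its adjusted p was 0.052. Its RefSeq promoter, 250 bases before to 50 after the start, is shown because the imprinted control of the cluster acts there (chr7:143296498-143296797, minus strand, GRCm38.p6), with CCAAT, the letters of the CCAAT box, in capitals.
Kcnq1ot1 promoter: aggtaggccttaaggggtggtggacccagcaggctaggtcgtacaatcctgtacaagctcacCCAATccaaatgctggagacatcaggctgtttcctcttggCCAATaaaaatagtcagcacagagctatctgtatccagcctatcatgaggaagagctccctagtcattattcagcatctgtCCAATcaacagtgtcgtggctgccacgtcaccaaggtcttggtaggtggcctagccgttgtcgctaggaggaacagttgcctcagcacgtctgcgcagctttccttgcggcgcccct
The letters CCAAT began 188, 148 and 67 bases before the start, all on the strand of the gene. On either strand, CCAAT was in 37.4% of 32851 promoters of this length. The hexamer TGCCGC, which the imprint-protecting protein Zfp57 binds when methylated, was not in this window, and was in 11.6% of all promoters on either strand. The window held 9 CpG dinucleotides, against a median of 7 over all promoters.

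Cdkn1c encodes p57Kip2, an inhibitor of cyclin-dependent kinases that restrains growth (143458339 to 143461050, minus strand). It was at 16.6, 14.1 and 13.1 CPM in the BRD0705/PD03 libraries, against 0.593, 0.438 and 0.473 CPM in the 2i libraries. It had 1461 counts over the 3 libraries of BRD0705/PD03 and 44 over those of 2i. The mean was 14.6 ± 1.79 CPM in BRD0705/PD03 and 0.501 ± 0.081 CPM in 2i, a 30.2-fold difference (4.92 ± 0.16, adjusted p = 4.28e-15), and 0.592% of all tested genes had a higher fold change. An antisense gene model, Gm44732, overlaps 30.7% of the exonic bases of Cdkn1c and held 0 counts in all libraries.

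Phlda2, which encodes a pleckstrin-homology protein that limits placental growth (143501545 to 143503150, minus strand), was also higher. It stood at 5.60, 4.24 and 4.04 CPM in BRD0705/PD03, against 0.296, 0.239 and 0.197 CPM in 2i (4.26 ± 0.24, adjusted p = 2.0e-11). Slc22a18, a gene of the organic cation transporter family that lies between Cdkn1c and Phlda2 (143473736 to 143499334, plus strand), was scarce. It had 30, 28 and 44 counts in BRD0705/PD03 and 3, 14 and 6 in 2i, or 0.923, 1.02 and 1.08 CPM in BRD0705/PD03 against 0.178, 0.279 and 0.236 CPM in 2i (2.02 ± 0.32, adjusted p = 1.96e-05). The groups did not overlap for either gene, and Phlda2 was highest in BRD0705/PD03 replicate 1, as was Cdkn1c. Kcnq1, which encodes a potassium channel subunit (143106362 to 143427042, plus strand), was below the filter on low counts, with 4, 1 and 2 counts in BRD0705/PD03 and 1, 2 and 2 in 2i. The 7 counts of BRD0705/PD03 and 5 of 2i gave a ratio of 1.28 with an exact 95% interval of 0.35 to 5.13, which covers counting error alone, so a difference was not detectable at this depth. Kcnq1 and Kcnq1ot1 lie on opposite strands and share 121 exonic bases. Whether the counting used strand is unknown, and in unstranded counts the reads of those bases cannot be told apart.

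The promoters of Phlda2 (chr7:143502475-143502774, minus strand) and Slc22a18 (chr7:143473539-143473838, plus strand) are shown as those of members that rose and have an entry, with CCAAT or its complement ATTGG in capitals. Whether the lower Kcnq1ot1 RNA had a part in the rise of other members was not tested.
Phlda2 promoter: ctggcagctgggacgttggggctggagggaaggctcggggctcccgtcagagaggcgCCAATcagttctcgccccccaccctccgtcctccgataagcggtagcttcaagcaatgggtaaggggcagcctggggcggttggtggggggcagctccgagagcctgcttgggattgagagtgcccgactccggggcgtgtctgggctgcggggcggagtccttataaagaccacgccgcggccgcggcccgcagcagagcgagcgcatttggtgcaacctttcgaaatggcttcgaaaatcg
Slc22a18 promoter: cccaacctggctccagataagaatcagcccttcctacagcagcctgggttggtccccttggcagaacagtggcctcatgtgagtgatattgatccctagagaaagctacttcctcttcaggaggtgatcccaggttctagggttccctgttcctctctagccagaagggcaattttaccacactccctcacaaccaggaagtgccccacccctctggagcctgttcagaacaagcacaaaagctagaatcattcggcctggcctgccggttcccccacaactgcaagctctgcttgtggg
The windows differed in their letters, with 26 CpG dinucleotides for Phlda2 and 2 for Slc22a18. The Phlda2 window held CCAAT once, 193 bases before the start, and the Slc22a18 window did not hold it. Neither held TGCCGC. Of the 10 members 7 had promoters in the RefSeq table, with 4 starts for Igf2. H19, Kcnq1 and Cdkn1c had no entry. The RefSeq start of Phlda2 lies inside the GENCODE bounds of the gene.

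Among the 3 members known mainly for placental imprinting, Ascl2 rose, Cd81 fell slightly and Tssc4 did not pass the test. Ascl2 encodes a basic helix-loop-helix factor needed for the placenta and for intestinal stem cells (142966829 to 142969264, minus strand). It stood at 2.25, 2.87 and 2.28 CPM in BRD0705/PD03, against 0.889, 0.797 and 0.985 CPM in 2i, a 2.79-fold difference (1.48 ± 0.21, adjusted p = 5.13e-06). Cd81, a tetraspanin of the cell surface (143052739 to 143067934, plus strand), was abundant in both groups, at 278, 289 and 286 CPM in BRD0705/PD03, against 368, 366 and 348 CPM in 2i (-0.34 ± 0.04, adjusted p = 3.98e-07). With a test against a fold of 1.5 Cd81 was not called (adjusted p = 1). Tssc4, which encodes a factor in assembly of the spliceosome (143069249 to 143071093, plus strand), stood at 19.4, 21.98 and 20.9 CPM in BRD0705/PD03, against 23.2, 22.3 and 23.3 CPM in 2i. The groups of Tssc4 did not overlap but lay close together (-0.14 ± 0.06, adjusted p = 0.0694), and without BRD0705/PD03 replicate 2 it was called lower (-0.18, adjusted p = 0.041). Tssc4 shares 220 exonic bases with Trpm5 on the opposite strand.

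The Ascl2 promoter (chr7:142969215-142969514, minus strand) is shown as that of another member that rose and has an entry, with CCAAT or ATTGG in capitals.
Ascl2 promoter: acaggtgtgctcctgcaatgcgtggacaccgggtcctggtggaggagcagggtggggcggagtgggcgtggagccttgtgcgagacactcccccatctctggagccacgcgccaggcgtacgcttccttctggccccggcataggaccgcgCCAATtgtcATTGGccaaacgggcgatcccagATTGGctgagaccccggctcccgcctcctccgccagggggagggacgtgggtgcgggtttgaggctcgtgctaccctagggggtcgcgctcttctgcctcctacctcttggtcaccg
It held 3 matches, at 99, 90 and 67 bases before the start, the first as CCAAT and the other two as ATTGG, and 23 CpG dinucleotides. The letters CTTTGA, a core of the Tcf/Lef binding site, were not in this window on either strand, and were in 16.0% of all promoters. Among the Igf2 windows, which are not shown, 1 held CTTTGA, on the strand opposite to the gene.

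To compare levels between genes, CPM were divided by the exonic length annotated in GENCODE M21, which ranges from 1.12 kb for Phlda2 to 93.1 kb for Kcnq1ot1. On this scale of CPM per kb, Cd81 was the highest member in both groups, at 98.7 ± 1.88 in BRD0705/PD03 and 125 ± 3.70 in 2i, and Tssc4 was next at 11.3 ± 0.698 in BRD0705/PD03 and 12.4 ± 0.310 in 2i. The order below them differed between the groups. In BRD0705/PD03 Cdkn1c followed at 7.15 ± 0.876, H19 at 4.92 ± 0.318, Phlda2 at 4.13 ± 0.757 and Kcnq1ot1 at 2.18 ± 0.207 CPM per kb. H19 and Phlda2 overlapped there, and the other neighbours in the order did not. In 2i Kcnq1ot1 came next at 3.89 ± 0.458, above H19 at 0.610 ± 0.164, Ascl2 at 0.549 ± 0.0581, Cdkn1c at 0.246 ± 0.0397 and Phlda2 at 0.218 ± 0.0445 CPM per kb. H19 overlapped with Ascl2 in 2i, Cdkn1c with Phlda2, and Igf2 with Kcnq1. The lower places in BRD0705/PD03 were those of Ascl2 at 1.52 ± 0.215, Slc22a18 at 0.592 ± 0.0458, Igf2 at 0.214 ± 0.0354 and Kcnq1 at 0.017 ± 0.0115 CPM per kb. In 2i they were those of Slc22a18 at 0.136 ± 0.0299, Igf2 at 0.0555 ± 0.0427 and Kcnq1 at 0.0145 ± 0.00476 CPM per kb. The level of Kcnq1ot1 per length rests on its annotation as a single exon of 93.1 kb.

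**Figure D2:**
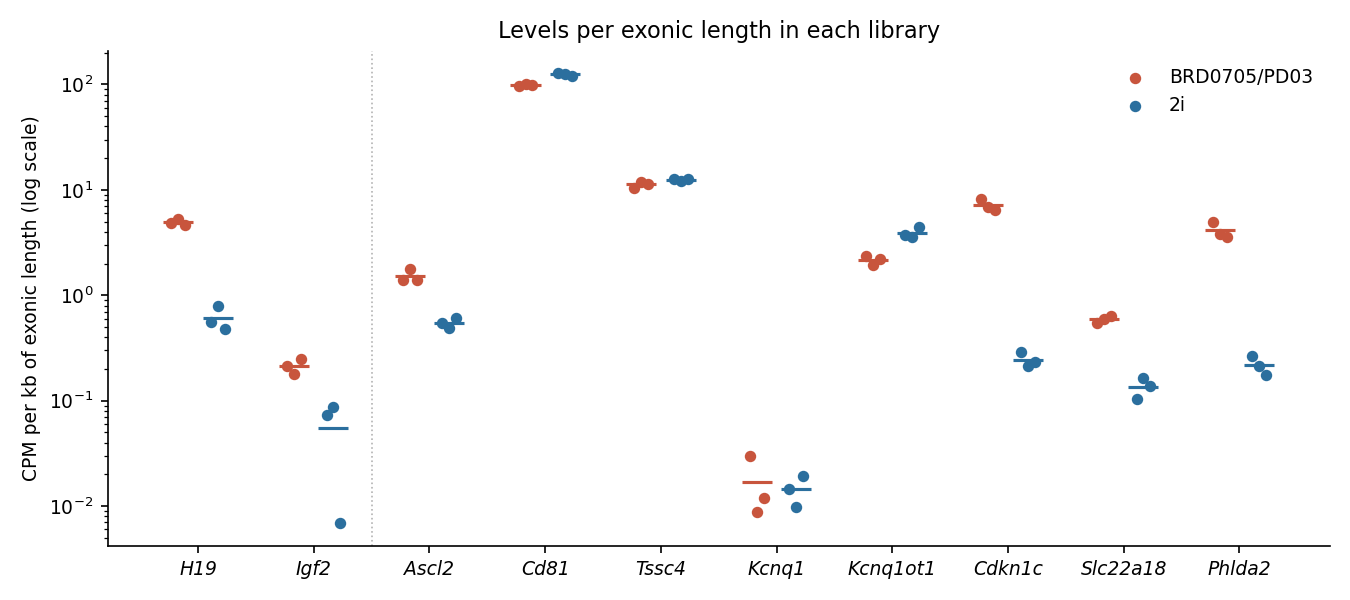
Levels of the 10 members in CPM per kb of exonic length (log axis) in each library, BRD0705/PD03 at left and 2i at right for each gene, with a bar at the group mean (n = 3 each). Cdkn1c, H19 and Phlda2 stand above Kcnq1ot1 in BRD0705/PD03 and below it in 2i.

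Of 21 listed neighbouring genes of the clusters, 13 passed the filter, and their median log2 fold change was -0.10. Of these 13, 3 (23.1%) were higher and 5 (38.5%) lower, near the 30.1% and 31.4% of all tested genes. Nap1l4, a histone chaperone gene 971 kb from H19 and next to Phlda2, stood at 136.9 ± 2.98 CPM in BRD0705/PD03 and 138 ± 2.07 CPM in 2i and was not called (-0.02 ± 0.04, adjusted p = 0.746). Osbpl5, an oxysterol-binding protein gene imprinted in mouse placenta, rose (6.37 ± 1.07 CPM in BRD0705/PD03 against 2.46 ± 0.199 CPM in 2i, 1.35 ± 0.15), as did the decoy receptor gene Tnfrsf23 (0.81 ± 0.16). Tspan32, a tetraspanin gene between Ascl2 and Cd81, fell (1.99 ± 0.200 CPM in BRD0705/PD03 against 3.39 ± 0.135 CPM in 2i, -0.78 ± 0.16), and so did Dhcr7, which encodes the last enzyme of cholesterol synthesis (-0.99 ± 0.05). Trpm5 (-0.54 ± 0.26, adjusted p = 0.0832) and Mrpl23 (0.33 ± 0.16, adjusted p = 0.0893) were not called, though Trpm5 was without BRD0705/PD03 replicate 2 (-0.77, adjusted p = 0.0307) or 2i replicate 3 (-0.72, adjusted p = 0.0265), and Mrpl23 without 2i replicate 3 (0.50, adjusted p = 0.0162). The insulin gene Ins2 had 0 counts in all libraries. Igf2os, antisense to Igf2, was below the filter at up to 6 counts. Th, the tyrosine hydroxylase gene, was also below the filter and not tested, with 5, 6 and 10 counts in BRD0705/PD03 and 0 in each 2i library. It stood at 0.154, 0.218 and 0.245 CPM in BRD0705/PD03, while a count of 0 allows up to 0.178 CPM in 2i replicate 1.

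**Figure D3:**
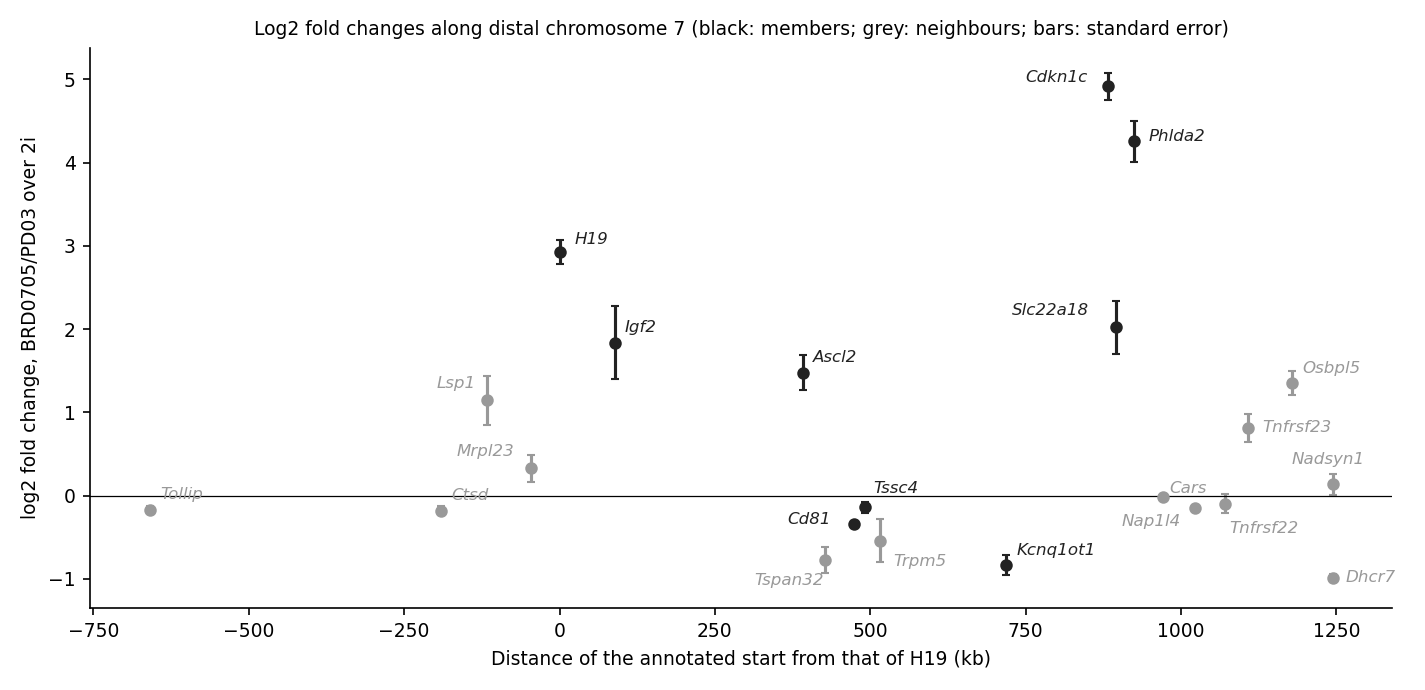
Log2 fold change of BRD0705/PD03 over 2i (y axis, bars are standard errors, n = 3 per group) against the distance in kb of each gene's annotated start from that of H19 (x axis), members in black and tested neighbours in grey. Cdkn1c, Slc22a18 and Phlda2, within 42.1 kb of each other, stand above the tested genes with the nearest starts on both sides, Kcnq1ot1 at -0.83 and Nap1l4 at -0.02.

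Of 18 tested genes for factors that set, keep or remove imprints, 9 (50%) were higher and 6 (33.3%) lower (median 0.13). Over all tested genes 30.1% were higher and 31.4% lower. The methyltransferase genes Dnmt3a (148 ± 8.51 CPM in BRD0705/PD03 against 28.9 ± 0.658 CPM in 2i) and Dnmt3b (476 ± 21.7 CPM in BRD0705/PD03 against 119 ± 3.91 CPM in 2i) rose by 2.35 and 2.00 on the log2 scale, and Dppa3, whose protein protects the maternal genome from demethylation in the zygote, rose by 2.39. Trim28, a corepressor that Zfp57 brings to imprinted regions, rose by 0.44, while Zfp57 fell (190 ± 5.93 CPM in BRD0705/PD03 against 271 ± 7.22 CPM in 2i, -0.52 ± 0.04). Ctcf, the insulator protein of the H19 control region, rose by 0.13, and Tet1, a 5-methylcytosine oxidase gene, by 0.40. Tet2, another oxidase gene, fell by 1.63, and Uhrf1, which guides Dnmt1 to replicated DNA, by 0.20. Dnmt1 was not called (433 ± 14.7 CPM in BRD0705/PD03 against 423 ± 2.47 CPM in 2i, 0.04 ± 0.04, adjusted p = 0.466), but passed as higher with upper-quartile scaling (0.10, adjusted p = 0.00981). With a test against a fold of 1.5, 3 of these genes were higher and 2 lower.

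The insulin-like growth factor axis was read in 13 genes (the ligand Igf1, receptors, adaptors, binding proteins and proteins that bind Igf2 mRNA). Of these, 8 (61.5%) were higher and 3 (23.1%) lower (median 0.38), against 30.1% and 31.4% of all tested genes. With a test against a fold of 1.5, 4 of the 13 were higher. The clearance receptor gene Igf2r, itself imprinted, was lower (163.5 ± 8.52 CPM in BRD0705/PD03 against 312.5 ± 8.26 CPM in 2i, -0.93 ± 0.04), and Insr, the insulin receptor gene, fell by 0.74. Igf1r, the signalling receptor gene of Igf2, rose by 0.51, its adaptor gene Irs1 by 2.19 and the binding protein gene Igfbp3 by 1.72. Among the other inhibitors of cyclin-dependent kinases, 1 of 6 (16.7%) was higher and 3 (50%) lower, against the same shares of all genes. Cdkn1b, the nearest relative of Cdkn1c, rose by 0.99, while Cdkn1a fell by 0.31, Cdkn2d by 0.33 and Cdkn2c by 1.06 on the log2 scale.

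Of 28 tested imprinted genes of other chromosomes and domains, 14 (50%) were higher and 8 (28.6%) lower (median 0.15). Over all tested genes these shares were 30.1% and 31.4%. The list holds Igf2r, counted above as well. Plagl1, which encodes a zinc finger factor known to activate H19 and Igf2 in mouse, was at 2.25, 2.97 and 2.84 CPM in BRD0705/PD03, against 83.5, 84.6 and 94.1 CPM in 2i (-5.02 ± 0.08). Plagl1 stood low in the libraries in which H19 and Igf2 stood high, and whether it had a part in their levels was not tested. The noncoding RNA Rian, of the Dlk1-Dio3 region, rose (1081, 1031 and 981 CPM in BRD0705/PD03 against 192, 172 and 196 CPM in 2i, 2.47 ± 0.05), as did Peg3, a zinc finger gene (1.21 ± 0.04), and Grb10, which encodes a receptor adaptor that limits growth (1.15 ± 0.05).

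**Figure D4:**
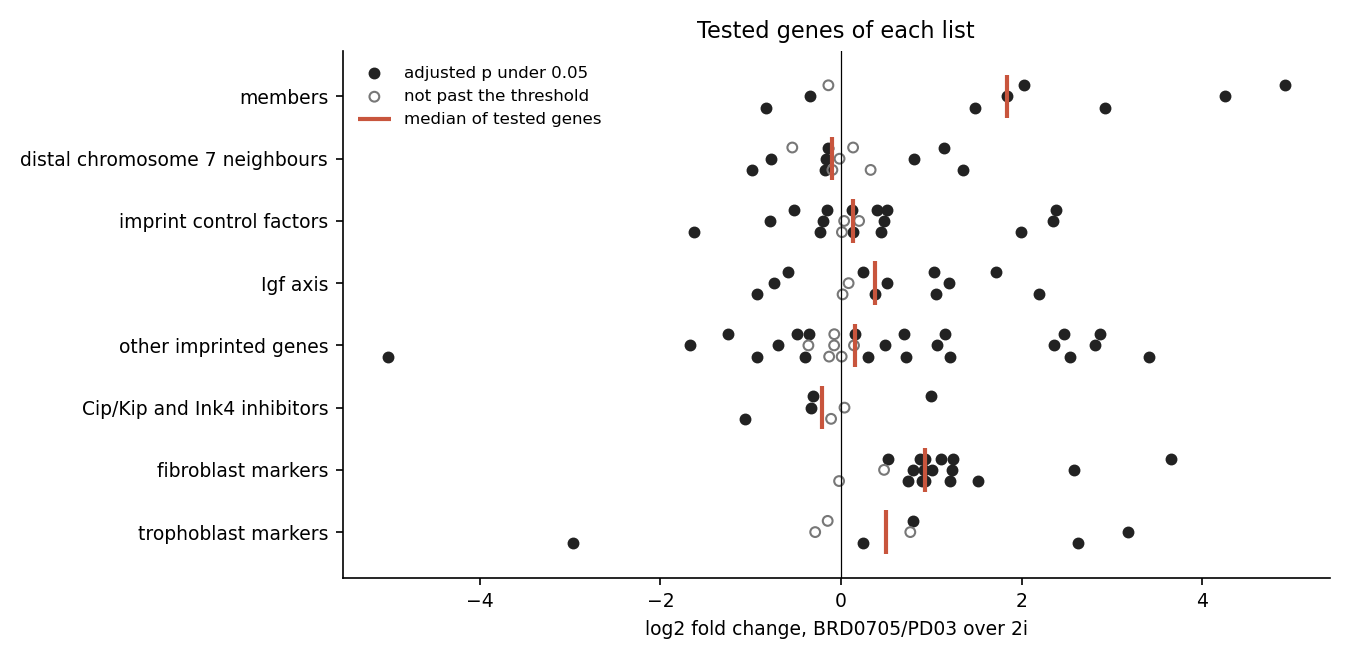
Log2 fold change of BRD0705/PD03 over 2i for each tested gene of the members and of 7 other lists, filled where the adjusted p was under 0.05, with a vertical bar at the list's median. The median is 1.84 for the members, 0.15 for other imprinted genes and -0.10 for the chromosome 7 neighbours.

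Markers of other cell types were read beside the members because H19, Igf2 and Cdkn1c are also expressed in fetal fibroblasts, which feeder cells are, and Ascl2 and Phlda2 in trophoblast. Fibroblast markers had a median log2 fold change of 0.93. Within BRD0705/PD03 their summed level was 1756 CPM in replicate 1, 2088 CPM in replicate 2 and 2295 CPM in replicate 3. Of the 6 members that rose, Cdkn1c and Phlda2 were highest in replicate 1, H19 and Ascl2 in replicate 2, and Igf2 and Slc22a18 in replicate 3. This order was not tested. It is uncertain where values lie close, as for H19 at 11.5 to 12.99 CPM, or counts are few, as for Igf2 at 28 to 58. Whether fibroblast RNA had a part in the members' differences was not tested. Among fibroblast genes Prrx1, a mesenchymal homeobox gene, rose by 1.00 and Mmp2, a matrix protease gene, by 1.2, while the contractile genes Tagln and Acta2 rose by 3.66 and 2.58. Of 8 tested trophoblast markers 4 (50%) were higher and 1 (12.5%) lower, against 30.1% and 31.4% of all tested genes. The trophoblast markers had summed levels of 63.4 to 66.4 CPM in BRD0705/PD03 and 44.7 to 51.0 CPM in 2i. The epithelial keratin gene Krt8 rose by 3.18, its partner Krt18 by 2.63 and Eomes, a trophoblast and mesendoderm factor gene, by 0.80, while Gata3 fell by 2.97. Tfap2c, at 42.8 CPM in BRD0705/PD03 and 36.4 CPM in 2i, made up most of the trophoblast sums and was called higher (0.24 ± 0.06). Elf5 was not called, with 97 counts over the BRD0705/PD03 group and 107 over the 2i group. Cdx2 and Hand1 were below the filter. Cdx2 had 16 counts in BRD0705/PD03 and 33 in 2i, and Hand1 was at 0 in 5 of the 6 libraries. These factors were named after their values were seen. Of 7 tested primitive endoderm markers 3 (42.9%) were higher and 2 (28.6%) lower, against the same shares of all genes. The primitive endoderm markers had lower summed levels in BRD0705/PD03, at 32.0 to 34.0 CPM against 157 to 179.5 CPM in 2i, most of which was Lama1.

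**Figure D5:**
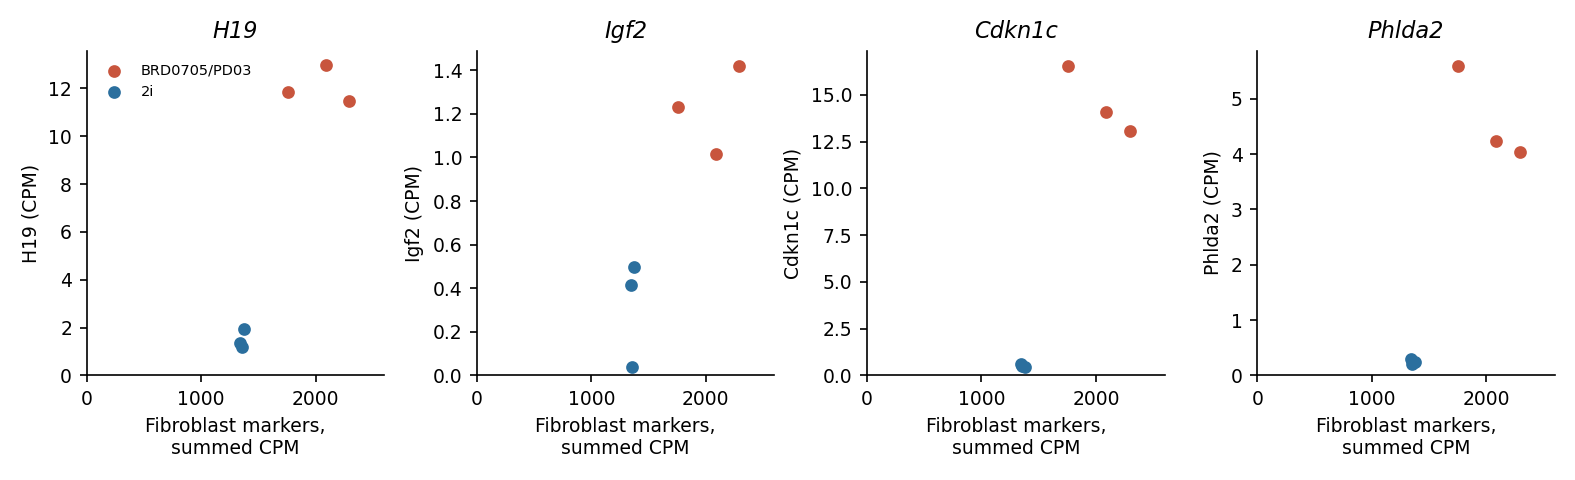
Levels of H19, Igf2, Cdkn1c and Phlda2 (CPM) against the summed level of 18 fibroblast markers (CPM) in each of the 6 libraries. The largest part of that sum is Fn1, which was not called. The BRD0705/PD03 libraries lie above the 2i libraries on both axes. Within BRD0705/PD03 Cdkn1c and Phlda2 are highest at the lowest fibroblast sum, H19 at the middle one and Igf2 at the highest, an order within n = 3 libraries that was not tested.

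The genes whose pattern was nearest to that of a member were found by the distance between centred log2 CPM over the 6 libraries, among 10241 named genes that averaged 5 CPM or more. For H19 they were Cdhr1, Ece1 and Sfrp2, at distances of 0.27, 0.384 and 0.426. For Cdkn1c they were Pax6, Ipp and Lef1, at 0.453, 0.456 and 0.479. For Kcnq1ot1 they were Vwf, Cd1d1 and Garnl3, at 0.0896, 0.151 and 0.161. Their log2 fold changes were 3.03, 2.79 and 3.21 for the first set, 5.26, 4.48 and 4.41 for the second and -0.82, -0.91 and -0.81 for that of Kcnq1ot1. The distances share the same 6 libraries, and Igf2, below 5 CPM, was left out.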

How the data were processed

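Per the submitters' processing notes, reads were processed with Salmon and the build mm10, and the deposited files give estimated counts as whole numbers per gene symbol, with no scaling between libraries. The sources used here do not give the version, the annotation, whether strand was used or how transcripts were summed. Groups came from the sample titles. Nothing says that the libraries are separate cultures, so p-values measure the spread between libraries, which may be technical. Libraries of one group differed by more than sampling noise (chi-square per degree of freedom 2.77 to 9.84).

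All genes were tested in one fit with edgeR 4.0.16 in R 4.3.3 (filterByExpr, TMM, robust quasi-likelihood, two-sided, Benjamini-Hochberg over 20422 genes, threshold 0.05), and members were read from it. Each standard error is the absolute log2 fold change over √F. Coordinates and exonic lengths are from GENCODE M21 on GRCm38. Likeness of patterns used log2 CPM (prior count 2). The members and lists were chosen with earlier results of these data known. The rule for named genes took all 10 members, up to 4 called genes of each list with the smallest p (40 in all) and 13 further genes whatever their values, 63 together, not all of which are printed. On simulated data for this comparison over 20422 genes, the edgeR test recovered 24% of genes with a 1.2-fold change, 92% at 1.5-fold and 100% at 2-fold and at 4-fold. Unchanged genes made up 4.82% of its calls. The simulation changed 50 genes per fold, all averaging at least 1 CPM, and gave every gene the same spread, whereas 61.4% of the real genes were called. These shares therefore do not describe Igf2 and Slc22a18, which average less than 1 CPM, or genes with a wider spread. Intervals and floors cover counting error only. Alternatives were DESeq2 1.42.0, other factors and filters, a replicate block, leaving out each library and a test against a fold of 1.5.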

Additional observations from a re-analysis of the deposited data

How the results depend on the processing

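The 6 members called higher and the 2 called lower kept their direction under the 13 alternatives, where these could test them, and their calls too, except that Kcnq1ot1 (adjusted p = 0.052) and Cd81 (adjusted p = 1) were not called with a test against a fold of 1.5. Igf2 and Slc22a18 could not be tested with a mean of at least 1 CPM, since that filter removes them. Over the alternatives, log2 fold changes were 2.77 to 3.28 for H19, 1.39 to 2.66 for Igf2, 4.81 to 5.01 for Cdkn1c, 4.10 to 4.35 for Phlda2, 1.36 to 1.57 for Ascl2, 1.93 to 2.24 for Slc22a18, -0.89 to -0.72 for Kcnq1ot1 and -0.36 to -0.28 for Cd81. Igf2 reached 2.66 without 2i replicate 2. Leaving out each library gave 6 to 6 members higher and 2 to 3 lower.

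With the test against a fold of 1.5 the genes called higher numbered 2498 and the genes called lower 2596, while 0 members were lower, 1 neighbour was lower, 3 imprint control factors were higher and 2 lower, 4 Igf axis genes were higher, 4 other imprinted genes were lower, 1 kinase inhibitor gene was lower, 2 trophoblast markers were higher, 1 primitive endoderm marker was lower and 3 ESC markers were lower. That test asks for a larger change by construction. Of the primitive endoderm markers 1 was lower with DESeq2, and 1 where genes had to average 1 CPM. Nap1l4, not called in any setting, turned to 0.0498 with upper-quartile factors, 0.0058 without a filter and 0.00719 with that average, and ranged from -0.0325 to 0.0105 when each library was left out (0.003 without BRD0705/PD03 replicate 3 and 0.0105 without 2i replicate 2). With upper-quartile factors the genes called higher numbered 6967 and the genes called lower 5689, and the median of all genes moved by 0.0661.

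Replicate numbers are shared by the groups, but same-numbered libraries did not deviate together (correlations of -0.00822, 0.034 and -0.0357 for numbers 1, 2 and 3), and not every library correlated best with its own number. With the replicate number as a block, the genes called higher numbered 6059 and the genes called lower 6376, with 6 members higher and 2 lower. Igf2, Kcnq1 and Slc22a18 are limited by depth, with 33, 5 and 23 counts over the 2i group.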
